A study of Mus musculus with 4 samples.

Results

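The genes that encode subunits of the Polycomb repressive complexes were examined in cultured female mouse neural stem cells for H3K27ac, the acetylated form of lysine 27 on histone H3 that marks promoters and enhancers in use, measured by ChIP-seq (sequencing of immunoprecipitated chromatin). The 36 genes were taken from a list of named subunits, out of 21631 protein-coding RefSeq genes on chromosomes 1 to 19 and X. Each gene was given the H3K27ac peaks that overlapped its annotated body extended by 5 kb on both sides, so a peak near a neighbouring gene could be counted. The groups were 1 Smchd1-deleted ChIP library (genotype Smchd1 del/del) and 1 Smchd1-control ChIP library (titled fl/fl, with Smchd1 del/fl in the genotype field), each with 1 whole-cell-extract input library. The SMCHD1 protein is known for its part in X inactivation. Both groups came from Smchd1 del/fl neural stem cell lines derived at E14.5, with a maternal 129 X that carried an Xist deltaA allele and a paternal Castaneus X, and the strain field reads C57BL/6. Part of each line was transduced with the retrovirus MSCV-Cre-puro, selected with puromycin from 24 h and harvested on day 7, and the controls were left untransduced, so that deletion, transduction and selection cannot be told apart. The antibody field names H3K27me3 where the titles name H3K27ac, the control input carries a del/del genotype, and the design text of the series describes RNA-seq. Groups and mark were taken from the titles.

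Polycomb repressive complex 2 (PRC2) methylates the same lysine that is acetylated in H3K27ac, and a single lysine cannot carry both modifications. Polycomb repressive complex 1 (PRC1) ubiquitinates histone H2A, with a canonical form that reads the PRC2 mark through CBX proteins and variant forms that hold RYBP or YAF2, and the deubiquitinase complex PR-DUB removes that ubiquitin. In neural stem cells these complexes are known for holding genes of other lineages silent and for supporting self-renewal. The measurements below are of acetylation at the genes for the subunits, not of where the complexes bind.

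Promoter sequences of 6 of these genes are shown because they span the range of H3K27ac seen at the starts. They are RefSeq windows on GRCm38.p6 (the mm10 primary chromosomes) from 250 bases before to 50 bases after the annotated start, in the direction of transcription. Ring1 (chr17:34024631-34024930, minus strand) and Eed (chr7:89980927-89981226, minus strand) touched the highest folds of any of these windows in the deleted list, 14.1 and 14.0, with 13.3 and 13.5 in the control list. The window of Scmh1 (chr4:120405098-120405397, plus strand) touched a deleted peak and no control peak, and that of Ezh1 (chr11:101226414-101226713, minus strand) touched none. Both were chosen after their values were seen. Rbbp7 (chrX:162760122-162760421, plus strand) and Bcor (chrX:12160297-12160596, minus strand) are X-linked, and neither window touched a peak. Capitals mark matches on either strand to the GC box GGGCGG, to the CCAAT box, to the ETS-type motif CCGGAAG, to the YY1-type motif ATGGCGG, to TTTGGCGC and to TTTCCCGC, both of E2F type, and to the NRF1-type motif, which is GCGC followed after any 1 base by the letters TGCGC.
Ring1: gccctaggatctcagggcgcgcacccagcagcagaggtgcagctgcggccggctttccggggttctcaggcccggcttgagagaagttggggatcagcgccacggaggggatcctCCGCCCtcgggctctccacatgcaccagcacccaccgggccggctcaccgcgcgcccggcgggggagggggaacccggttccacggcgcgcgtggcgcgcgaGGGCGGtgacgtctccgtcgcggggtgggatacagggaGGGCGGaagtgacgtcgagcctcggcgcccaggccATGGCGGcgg
Eed: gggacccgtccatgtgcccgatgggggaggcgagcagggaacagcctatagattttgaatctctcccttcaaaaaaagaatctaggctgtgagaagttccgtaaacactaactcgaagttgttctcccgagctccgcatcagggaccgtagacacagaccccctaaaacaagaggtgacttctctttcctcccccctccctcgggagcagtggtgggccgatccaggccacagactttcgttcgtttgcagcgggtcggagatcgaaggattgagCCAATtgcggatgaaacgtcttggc
Scmh1: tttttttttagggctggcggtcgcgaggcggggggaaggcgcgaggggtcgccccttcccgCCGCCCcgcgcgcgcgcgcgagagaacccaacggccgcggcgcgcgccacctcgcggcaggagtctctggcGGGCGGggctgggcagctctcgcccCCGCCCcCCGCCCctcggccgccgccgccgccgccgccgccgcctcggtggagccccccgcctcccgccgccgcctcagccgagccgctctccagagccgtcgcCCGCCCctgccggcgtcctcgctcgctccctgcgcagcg
Ezh1: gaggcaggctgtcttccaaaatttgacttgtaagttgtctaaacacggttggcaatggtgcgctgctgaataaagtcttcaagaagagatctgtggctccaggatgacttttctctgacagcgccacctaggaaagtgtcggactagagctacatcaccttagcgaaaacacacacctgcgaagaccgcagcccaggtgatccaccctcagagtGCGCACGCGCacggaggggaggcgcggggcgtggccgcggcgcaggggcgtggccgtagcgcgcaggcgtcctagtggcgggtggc
Rbbp7: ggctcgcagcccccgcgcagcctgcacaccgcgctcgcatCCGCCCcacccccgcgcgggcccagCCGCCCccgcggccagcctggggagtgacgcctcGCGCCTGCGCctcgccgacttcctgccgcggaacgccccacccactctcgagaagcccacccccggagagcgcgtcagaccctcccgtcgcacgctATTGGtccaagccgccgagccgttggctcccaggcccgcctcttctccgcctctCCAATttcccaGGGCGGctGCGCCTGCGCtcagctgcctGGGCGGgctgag
Bcor: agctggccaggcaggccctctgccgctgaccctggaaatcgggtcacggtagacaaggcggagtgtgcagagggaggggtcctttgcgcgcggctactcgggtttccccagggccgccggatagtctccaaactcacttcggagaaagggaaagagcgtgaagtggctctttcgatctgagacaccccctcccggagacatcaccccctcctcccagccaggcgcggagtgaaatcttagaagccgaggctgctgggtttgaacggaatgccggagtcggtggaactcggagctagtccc

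The Ring1 window held 3 GC boxes and 1 YY1-type match, which spans the last bases shown in capitals, and had 37 CG dinucleotides. The Scmh1 window held 5 GC boxes and 54 CG dinucleotides, the most of any window of these genes. The Eed window held 17 CG dinucleotides, no GC box and 1 CCAAT, the Ezh1 window 1 NRF1-type match, the Rbbp7 window 4 GC boxes, 2 NRF1-type matches and 2 CCAAT, and the Bcor window none of the motifs. A match says only that these letters are present.

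All 36 genes had at least 1 H3K27ac peak in both lists, where 61.4% of all protein-coding genes did. None of the 36 had peaks in 1 list alone, where 5.71% of all protein-coding genes had them in the deleted list alone and 0.915% in the control list alone. The deleted library was the deeper, with 54194233 ChIP tags after filtering against 42277672 in the control library, a ratio of 1.28, and its list was longer, with 91557 peaks against 63613, a ratio of 1.44. The authors' fold enrichment, the summit pileup of tags over the local background from the same culture's input, had a median of 3.53 in the deleted list, against 4.04 in the control list, and its 90th percentile was 6.88 in the deleted list, against 7.47 in the control list. Pileups are not scaled between libraries, and each fold is a ratio to the background of its own library. The values are therefore given side by side without a ratio. Neither group had a replicate, so no test between the conditions was possible. Intervals below are exact 95% intervals that cover counting error only. Of 8 neural stem cell marker genes, all 8 had peaks in both lists, with median highest folds of 13.4 in the deleted list, against 13.0 in the control list. Peaks in both lists were also found at 2 of 5 neuron, 2 of 4 fibroblast, 2 of 3 microglia, 1 of 3 endothelial and 1 of 2 pluripotency markers. Cdh5 (3.02) and Nanog (4.36) had peaks in the deleted list only.

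The strongest peak per gene spanned a wide range. Its fold enrichment ran from 4.03 at Bcorl1 to 16.3 at Bmi1 in the deleted list, and from 3.60 at Pcgf5 to 14.9 at Kdm2b in the control list. It was at least 10 in both lists at 10 genes and below 5 in both lists at 5 genes. Neither count was taken over all protein-coding genes. The median over the 36 genes was 7.98 in the deleted list, against 7.87 in the control list, beside 7.72 and 7.06 over the 13284 protein-coding genes with a peak in both lists. The median body of the 36 genes was 38.2 kb, against 23.9 kb for those 13284 genes. The strongest peaks of the deleted and the control list overlapped at 27 of the 36 genes, against 74.3% of those 13284 genes. Many folds in a list rest on the same genome-wide background, so equal pileups give equal folds.

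**Figure D1:**
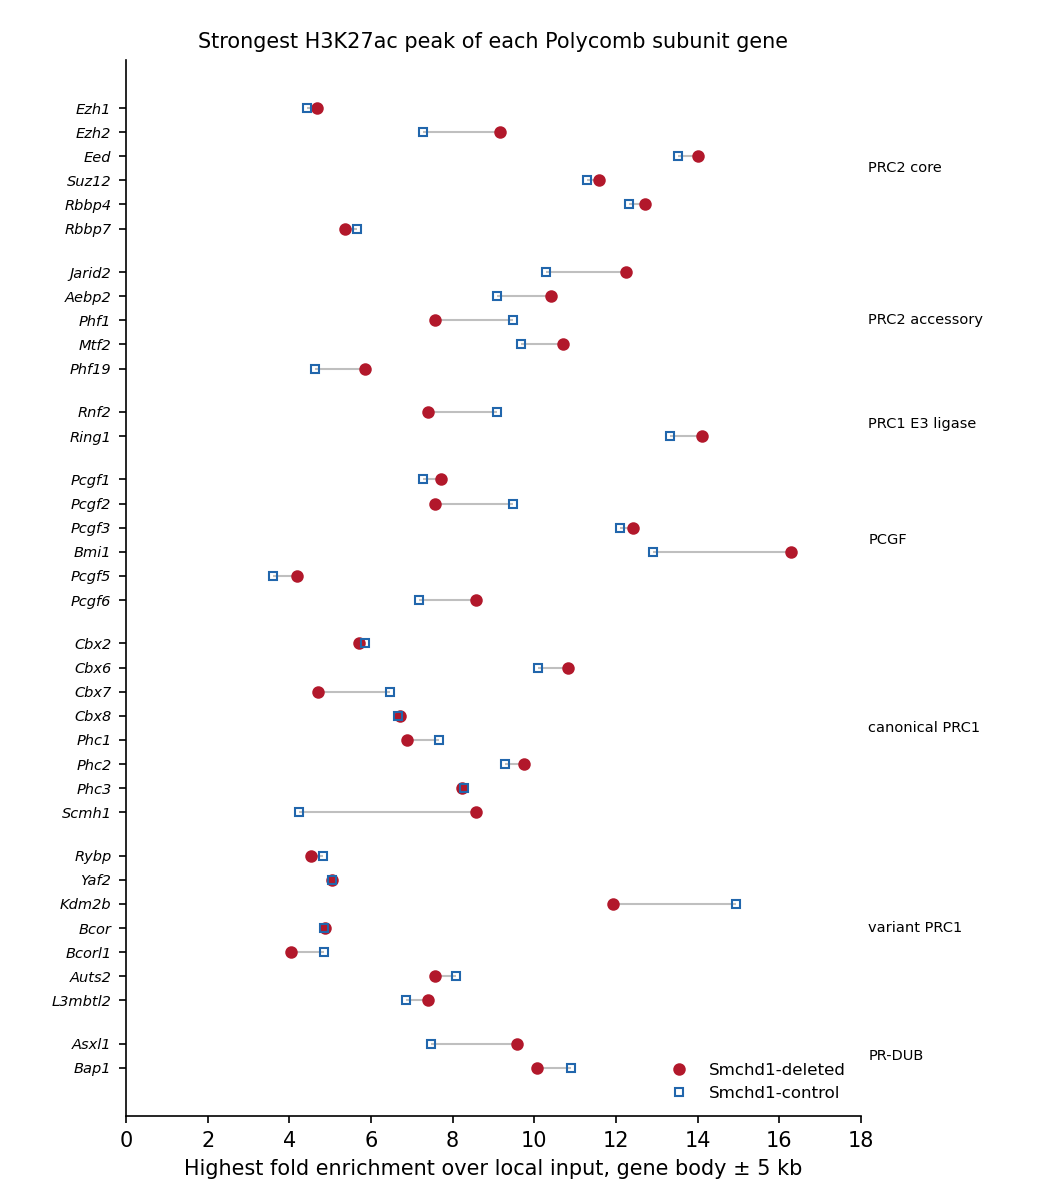
Fold enrichment over local input (x axis, no unit) of the strongest H3K27ac peak within the body ± 5 kb of each Polycomb subunit gene, with red circles for the Smchd1-deleted list and open blue squares for the Smchd1-control list, 1 library each. The genes run by role from PRC2 core to PR-DUB, and the values lie between 3.60 and 16.3, with Scmh1, at 8.56 in deleted and 4.24 in control cells, among the widest gaps.

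The windows of the PRC2 core genes held 20 peaks in the deleted list, of which 4, or 20% (5.73 to 43.7), overlapped no control peak, and 16 in the control list, of which none did so for the deleted list (0 to 20.6%). Over the windows of all protein-coding genes 48.4% of deleted and 22.7% of control peaks lacked a counterpart in the other list. Both intervals of the core genes lie below these shares. Every core peak outside the Ezh1 window had its summit within 1 kb of an annotated start. Over all peaks that near to the start of a protein-coding gene, 19.4% of deleted and 4.89% of control peaks lacked a counterpart. Both intervals hold these values. The 2 shares of the core genes rest on few peaks, and no test of their distance from any of these values was made. Eed, which binds trimethylated lysine 27 and stimulates the enzyme, had its strongest peak over the start, with a pileup of 97 tags and a fold of 14.0 in the deleted list, against a pileup of 66 and a fold of 13.5 in the control list. Suz12, the scaffold of the complex, had a pileup of 68 tags and a fold of 11.6 in the deleted list, against a pileup of 55 and a fold of 11.3 in the control list, with summits 572 and 594 bases downstream of the start. Rbbp4, a histone-binding subunit shared with other chromatin complexes, had a pileup of 88 tags and a fold of 12.7 in the deleted list, against a pileup of 60 and a fold of 12.3 in the control list. The pileups of these 3 genes were further apart than their folds. Pileups were not scaled for the ratio of 1.28 in ChIP tags between the libraries.

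The methyltransferase genes differed from each other. Ezh2, the main methyltransferase of dividing cells, had 2 peaks with a highest fold of 9.17 in the deleted list, against 3 peaks with a highest fold of 7.26 in the control list, all on either side of its start and all shared. The 3 control peaks overlapped the 2 deleted ones. The highest deleted peak lay downstream of the start, with a control counterpart of 7.20. The highest control peak lay upstream, with a deleted counterpart of 7.56. Ezh1, its paralog of non-dividing cells, had no summit within 1 kb of its annotated start in either list. The peaks in its window lay 4742 bases upstream in the deleted list, against 4685 in the control list, or at the far end of the gene next to Cntnap1. The highest fold at Ezh1 was at different peaks in the 2 lists. In the deleted list it was 4.67, at the upstream peak, whose control counterpart had 3.33. In the control list it was 4.44, at a peak next to Cntnap1 whose deleted counterpart had 4.20. Rbbp7, the X-linked paralog of Rbbp4, had 3 shared peaks in each list, the strongest at 5.37 in the deleted list, against 5.65 in the control list. Its annotated start lay in the gap between them.

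The genes for accessory subunits of PRC2 held 36 peaks in the deleted list, 20 of them without a control peak (55.6%, 38.1 to 72.1), and 23 in the control list, 7 of them without a deleted peak (30.4%, 13.2 to 52.9). Both intervals hold the shares over all gene windows. Jarid2, which helps to recruit PRC2 and is known as one of its substrates, had a start peak of 12.3 in the deleted list, against 10.3 in the control list. It had 13 peaks in the deleted list, against 8 in the control list, and 6 peaks of each list overlapped the other. Aebp2, a zinc finger cofactor, had 8 peaks with a highest fold of 10.4 in the deleted list, against 5 with a highest fold of 9.08 in the control list. Mtf2, a Polycomb-like protein that binds unmethylated CG-rich DNA, had 1 peak of 10.7 in the deleted list, against 2 peaks in the control list, at 9.67 and 4.33. The weaker control peak, 237 bases upstream of the start, had no counterpart among the deleted peaks.

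Phf19, another Polycomb-like gene, had 10 peaks in the deleted list, against 3 in the control list. The 3 control peaks overlapped deleted peaks, and the other 7 deleted peaks had folds between 2.85 and 3.86. Its start peak had a pileup of 40 tags (28.6 to 54.5) and a fold of 5.86 in the deleted list, and a pileup of 22 (13.8 to 33.3) and a fold of 4.64 in the control list. Phf1, the third Polycomb-like gene, is 4.78 kb long, and its strongest peak, of 7.56 in the deleted list, against 9.48 in the control list, lay beyond its body next to Cuta. A peak 301 bases downstream of the Phf1 start was present in the control list only (3.83).

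The ubiquitin ligase genes of PRC1 had start peaks in both lists. Ring1 reached a pileup of 83 tags and a fold of 14.1 in the deleted list, and a pileup of 65 and a fold of 13.3 in the control list, at a peak that also lay within 1 kb of H2-Ke6. Rnf2, which encodes RING1B, had 2 shared peaks flanking its start. The upstream one had a pileup of 37 tags (26.1 to 51.0) and a fold of 6.38 in the deleted list, and a pileup of 44 (32.0 to 59.1) and a fold of 9.08 in the control list. The downstream one had 7.39 in the deleted list, against 7.06 in the control list. The stronger of the flanking peaks was thus the downstream one in deleted cells and the upstream one in control cells, and the counting intervals overlapped.

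The PCGF genes, whose products set the type of PRC1 complex, ranged from the top to the bottom of the set. Bmi1 (Pcgf4 by family number), known for neural stem cell self-renewal, had the highest fold of all 36 genes in the deleted list. That peak had a pileup of 96 tags and a fold of 16.3 in the deleted list, against a pileup of 63 and a fold of 12.9 in the control list, and lay 4204 bases upstream in the deleted list, against 4221 in the control list, within 1 kb of Commd3 and Gm33355. Nearer the Bmi1 start, a peak with its summit 125 bases downstream was in the deleted list only, with a pileup of 42 tags and a fold of 7.22. The shared peak 889 bases downstream had 7.89 in the deleted list, against 6.66 in the control list. Pcgf3 had 1 peak of 12.4 in the deleted list, against 1 of 12.1 in the control list. Pcgf6 had 1 peak of 8.56 in the deleted list, against 1 of 7.17 in the control list, and Pcgf1, part of a variant complex with KDM2B and BCOR, reached 7.72 in the deleted list, against 7.26 in the control list.

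Pcgf5 was the exception among the 36 genes, since none of its peaks overlapped between the lists. It had 3 weak peaks in the deleted list, at 4.20, 2.69 and 3.36, and 1 in the control list, at 3.60 and 28983 bases from the nearest start. Of the 36 genes, 35 had a shared peak, and of the 13284 protein-coding genes with peaks in both lists 97.0% did. Pcgf2, a close relative of Bmi1, had its strongest peak next to Psmb3, at 7.56 in the deleted list, against 9.48 in the control list. Near its annotated start, which lies inside its RefSeq body, it had 1 weak peak in each list, 633 bases upstream in deleted cells (3.53) and 292 bases downstream in control cells (3.43). Just beyond the upstream end of the body, at 97702434, it had a shared peak within 1 kb of Psmb3. That peak had 4.03 in the deleted list, against 4.04 in the control list.

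**Figure D2:**
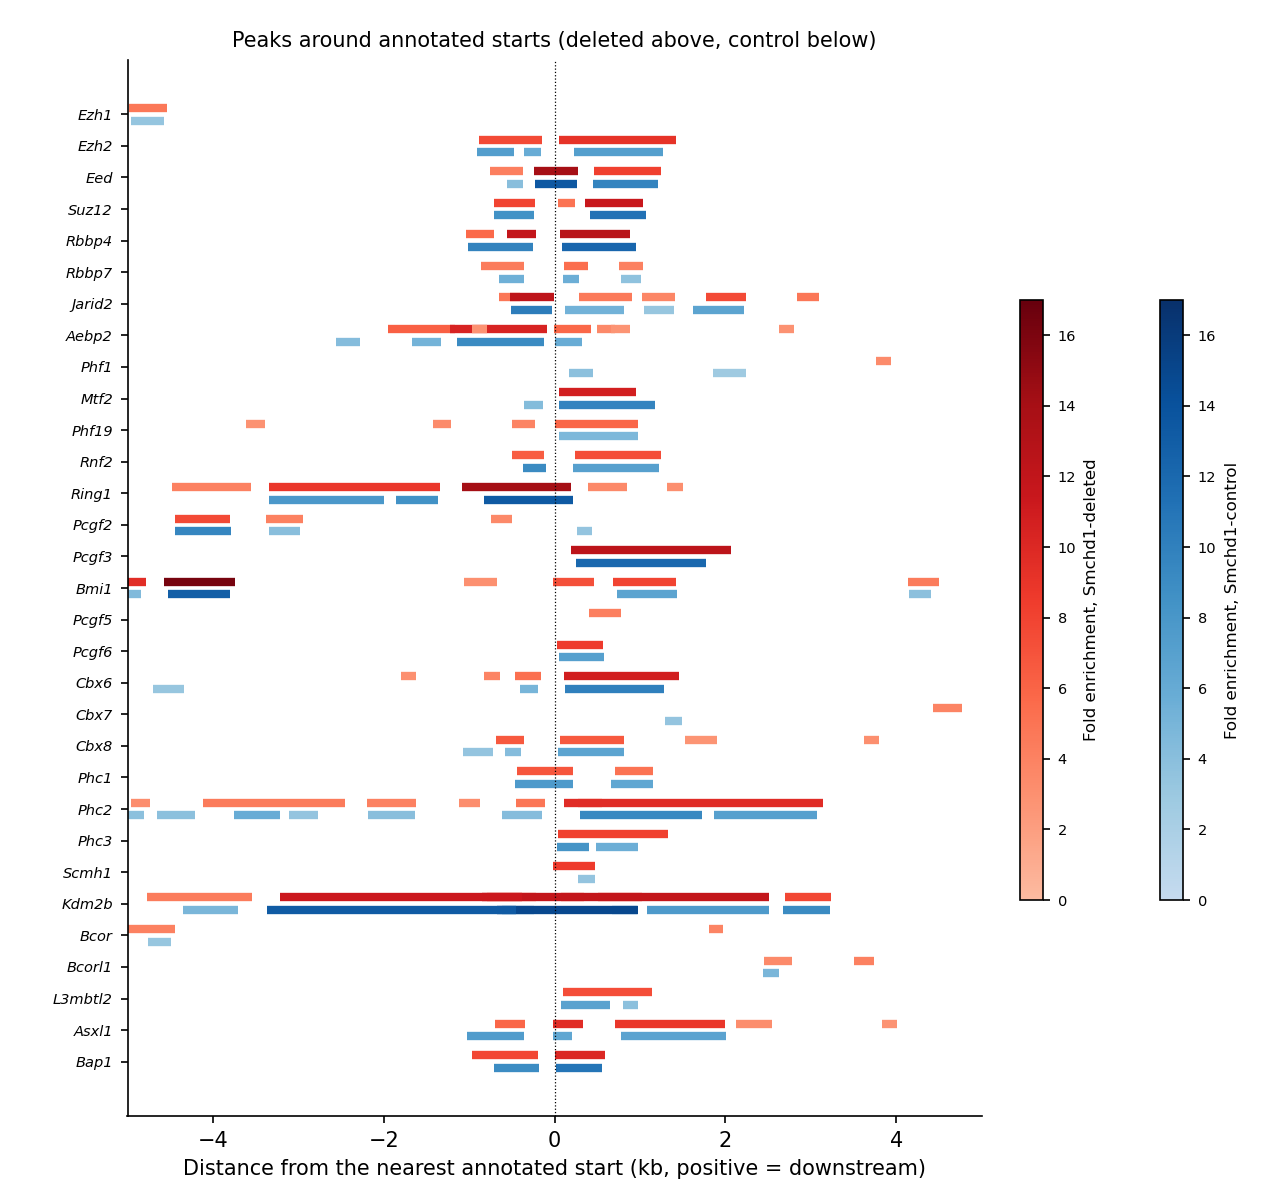
H3K27ac peaks around the nearest annotated start (x axis, kb, positive is downstream) of the 31 genes with an annotated start in the reference table, the Smchd1-deleted peaks in red above the Smchd1-control peaks in blue, with darker colour for a higher fold enrichment. Most genes have peaks in both lists within 1 kb, often leaving the start itself in a gap, and Ezh1, Cbx7, Bcor and Bcorl1 have none there.

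Annotated starts were available for 31 of the 36 genes, not for Pcgf1, Rybp, Yaf2, Cbx2 and Auts2. A summit within 1 kb of a start was found in both lists at 25 of the 31 genes, against 50.5% of the protein-coding genes in the same table. It was found in the deleted list only at 1, Pcgf5, against 5.23%, and in the control list only at 1, Phf1, against 0.949%. The remaining 4 were Ezh1, Cbx7, Bcor and Bcorl1. The strongest peak of a gene had its summit within 1 kb of a start at 24 of the 31 genes in the deleted list, against 22 in the control list. It lay outside the gene body at 4 of the 36 genes in the deleted list, against 8 in the control list. Another gene lay within 1 kb of it at 12 of the 36 genes in the deleted list, against 13 in the control list. In both lists these included Ezh2 (F830010H11Rik), Rbbp4 (Zbtb8os), Cbx2 (Gm35829) and Cbx6 (Npcd). Phc2 (Gm33712), Kdm2b (A930024E05Rik), Asxl1 (2500004C02Rik) and Bap1 (Phf7) were also among them. These counts of strongest peaks were not taken over all protein-coding genes.

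The genes of canonical PRC1 held 59 peaks in the deleted list, 31 of them without a control peak (52.5%, 39.1 to 65.7), and 37 in the control list, 6 of them without a deleted peak (16.2%, 6.19 to 32.0). Both intervals hold the shares over all gene windows, 48.4% and 22.7%. Without Phc2 these genes held 28 deleted and 18 control peaks. Among the CBX genes, whose chromodomains read trimethylated lysine 27, Cbx6 was the highest, with 10.8 in the deleted list, against 10.1 in the control list. Cbx8 reached 6.72 in the deleted list, against 6.66 in the control list, and Cbx2 5.71 in the deleted list, against 5.85 in the control list. Cbx7 had no summit within 1 kb of its annotated start in either list. Its strongest peak was shared and lay inside the body, 17167 bases upstream of that start in the deleted list, against 17239 in the control list, with a pileup of 27 tags (17.8 to 39.3) and a fold of 4.70 in deleted cells and a pileup of 31 (21.1 to 44.0) and a fold of 6.46 in control cells.

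Among the polyhomeotic genes, whose products link PRC1 complexes through SAM domains, Phc1 had 6.88 in the deleted list, against 7.67 in the control list, and Phc3 had 8.23 in the deleted list, against 8.27 in the control list. Phc2 held more peaks than any other of the 36 genes, with 31 in the deleted list, against 19 in the control list over a body of 98.2 kb. Of these, 18 in the deleted list, or 58.1% (39.1 to 75.5), and 3 in the control list, or 15.8% (3.38 to 39.6), overlapped no peak of the other list, and these intervals hold the shares over all gene windows too. The strongest peak lay 549 bases downstream of the last of its 3 annotated starts in the deleted list (pileup 57 tags, fold 9.74) and 517 bases downstream in the control list (pileup 45, fold 9.28). The 18 list-only peaks of deleted cells had folds between 2.52 and 4.70.

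**Figure D3:**
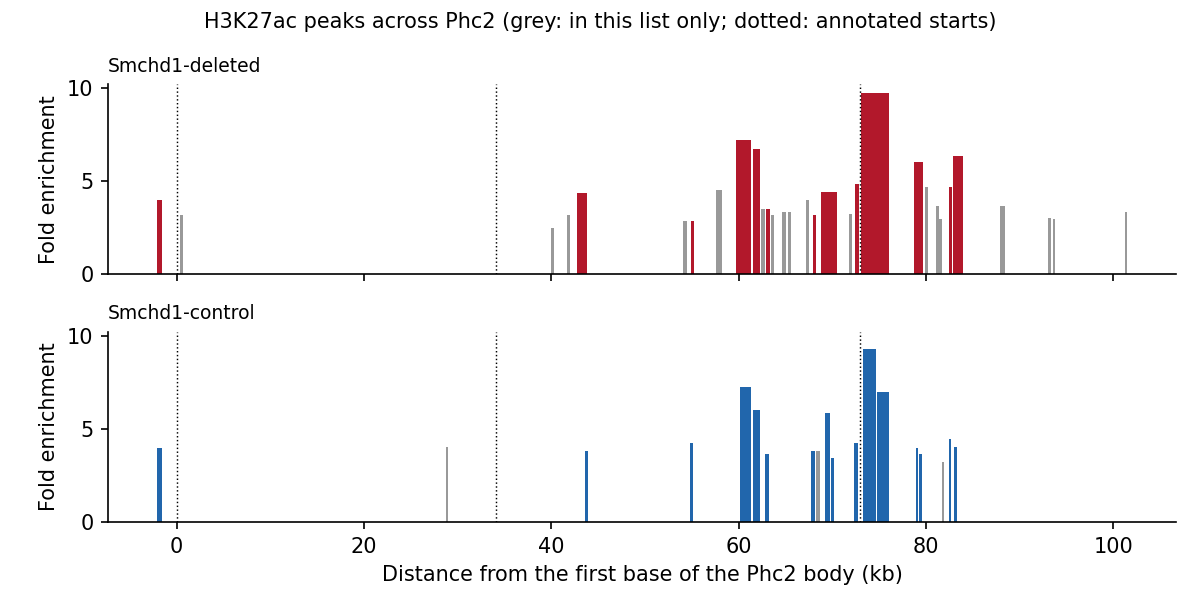
H3K27ac peaks along Phc2 (x axis, distance from the first base of the body in kb; y axis, fold enrichment), the Smchd1-deleted list above the Smchd1-control list, each bar 1 peak at its own width, drawn at least 0.3 kb wide. Coloured bars overlap a peak of the other list, grey bars do not, dotted lines are the annotated starts, and most of the 31 deleted and 19 control peaks are closer to the last start than to the other starts, and there both lists reach their maximum of 9.74 and 9.28.

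Scmh1, a SAM domain partner of the polyhomeotic proteins, had the largest gap between the lists of the canonical PRC1 genes. Its start peak (chromosome 4, 120405326 to 120405823 in the deleted list and 120405625 to 120405818 in the control list) had a pileup of 50 tags (37.1 to 65.9) and a fold of 8.56 in deleted cells, against a pileup of 16 (9.15 to 26.0) and a fold of 3.43 in control cells. The intervals did not overlap, but Scmh1 was picked out for its gap, so they are no test of a difference. The ratio of ChIP tags between the libraries was 1.28, and pileups were not scaled for it. The deleted peak was 498 bases long and covered the start, and the control peak was 194 bases long and began downstream of it. Their summits differed, at 120405542 in deleted cells and 120405724 in control cells, so the pileups were read at different bases. Intervals were also apart at a shared peak upstream of Bmi1, with a pileup of 56 tags (42.3 to 72.7) in deleted cells, against 21 (13.0 to 32.1) in control cells. The strongest control peak at Scmh1 lay 64399 bases downstream of the nearest start, with a fold of 4.24. That control peak had a pileup of 20 tags (12.2 to 30.9). It overlapped 2 deleted peaks with folds of 2.85 and 2.25 and pileups of 16 (9.15 to 26.0) and 17 (9.90 to 27.2), so the counting intervals inside the gene overlapped.

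Genes of the variant PRC1 complexes held 40 peaks in the deleted list, 19 of them without a control peak (47.5%, 31.5 to 63.9), and 29 in the control list, 5 of them without a deleted peak (17.2%, 5.85 to 35.8), with the shares over all gene windows inside both intervals. Kdm2b, whose CXXC domain brings a variant complex to CG islands, had the highest fold of all 36 genes in the control list. Its strongest peak had a pileup of 70 tags and a fold of 11.9 in the deleted list, against a pileup of 73 and a fold of 14.9 in the control list. In deleted cells that peak was 1 stretch from 122985995 to 122989354 on chromosome 5, which in control cells was called as 2 peaks. Kdm2b had 12 peaks in the deleted list, against 13 in the control list, among the few genes with more in control cells. Auts2, a member of a variant complex linked to gene activation in neurons, reached 7.56 in the deleted list, against 8.07 in the control list. L3mbtl2, an MBT domain subunit, reached 7.39 in the deleted list, against 6.86 in the control list at its start, and had 6 peaks in the deleted list, against 3 in the control list.

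Rybp and Yaf2, the paralogs that define variant PRC1, were both low. Rybp reached 4.53 in the deleted list, against 4.83 in the control list. Yaf2 reached 5.04 in both lists, at different positions, since its strongest deleted peak had no control counterpart. Bcor and Bcorl1, X-linked corepressor paralogs of a variant complex, had no summit within 1 kb of their annotated starts. Bcor had 8 peaks with a highest fold of 4.87 in the deleted list, against 5 with a highest fold of 4.84 in the control list. These maxima were at different peaks. At Bcor 1 deleted peak of 4.87 had a control counterpart of 4.64, and another had none. The control peak of 4.84 had a deleted counterpart of 3.02. Bcorl1 had 2 peaks in the deleted list, at 3.43 and 4.03, and 1 in the control list, at 4.84. The shared Bcorl1 peak had a pileup of 23 tags in both libraries, so its different folds came from the background in the ratio.

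The PR-DUB genes had 11 peaks in the deleted list, 6 of them without a control peak (54.5%, 23.4 to 83.3), and 5 in the control list, all shared (0 to 52.2% without a counterpart). These wide intervals hold the 48.4% and 22.7% over all gene windows. Bap1, the deubiquitinase, had a peak just downstream of its start of 10.1 in the deleted list, against 10.9 in the control list. Asxl1, which activates BAP1, reached 9.57 in the deleted list, 129 bases downstream of the start, and 7.47 in the control list, 514 bases upstream. It had 7 peaks in the deleted list, against 3 in the control list. The 4 additional deleted peaks had folds between 2.83 and 3.53, and 2 of them lay near Nol4l.

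Of the 36 genes 3 were X-linked, Rbbp7, Bcor and Bcorl1, with highest folds between 4.03 and 5.37 in the deleted list and between 4.84 and 5.65 in the control list. All 3 were below the median of the 36 genes in both lists. This count was not taken over all X-linked genes. Other X-linked genes read here ran from Dcx, without a peak, to Kdm6a. Kdm6a reached 14.6 in the deleted list, against 12.7 in the control list. Peaks from both X chromosomes enter 1 value, so the silent and the active copy cannot be told apart.

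Numbers of peaks were higher in the deleted list at 24 of the 36 genes, against 56.9% of the protein-coding genes with peaks in both lists. They were higher in the control list at 4, Ezh2, Phf1, Mtf2 and Kdm2b, each by 1 peak, against 14.1%, and equal at 8, against 29.0%. The largest differences in the full lists were at Phc2, Phf19, Jarid2 and Asxl1. With the deleted list shortened to the length of the control list by its q-values, 15 genes had more deleted peaks, against 31.6% of the protein-coding genes with peaks in both lists, and 10 had more control peaks, against 32.4%. At least 1 deleted-list peak without a control peak was present at 27 genes, against 72.1%, and at least 1 control-list peak without a deleted peak at 13, against 44.8%.

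In all, the 36 windows held 190 peaks in the deleted list, against 127 in the control list, a ratio of 1.50, or 1.47 without Phc2. These covered 98.4 kb in the deleted list, against 66.0 kb in the control list. Of the deleted peaks 47.4% (40.1 to 54.7) overlapped no control peak, and of the control peaks 15.7% (9.89 to 23.3) overlapped no deleted peak, beside 48.4% and 22.7% over the windows of all protein-coding genes. Peaks with a summit within 1 kb of a start lacked a counterpart in 25.9% (15.3 to 39.0) of 58 deleted and 6.25% (1.31 to 17.2) of 48 control cases, beside 19.4% and 4.89% over all peaks as near to the start of a protein-coding gene. Farther from starts the percentages were 58.3% (48.7 to 67.4) of 115 deleted and 24.6% (15.1 to 36.5) of 69 control peaks, beside 57.2% and 29.9% over all peaks that far. Each of these 4 intervals holds the share over all peaks. Peaks with a fold of at least 5 numbered 64 in the deleted list, 4 of them without a counterpart (6.25%, 1.73 to 15.2), and 63 in the control list, all with one, beside 4.17% of 19156 deleted and 1.28% of 18380 control peaks genome-wide without one. Peaks with a fold under 3 numbered 28 in the deleted list, 25 of them without a counterpart (89.3%, 71.8 to 97.7), and 4 in the control list, 2 of them without one, beside 78.6% of 15170 deleted and 43.1% of 3528 control peaks genome-wide. In these windows as genome-wide, the share without a counterpart was higher among the weak peaks. With the deleted list shortened to the length of the control list, the 36 windows held 135 deleted peaks, against 127 control peaks. The part of the deeper library in the excess of deleted peaks was not tested.

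**Figure D4:**
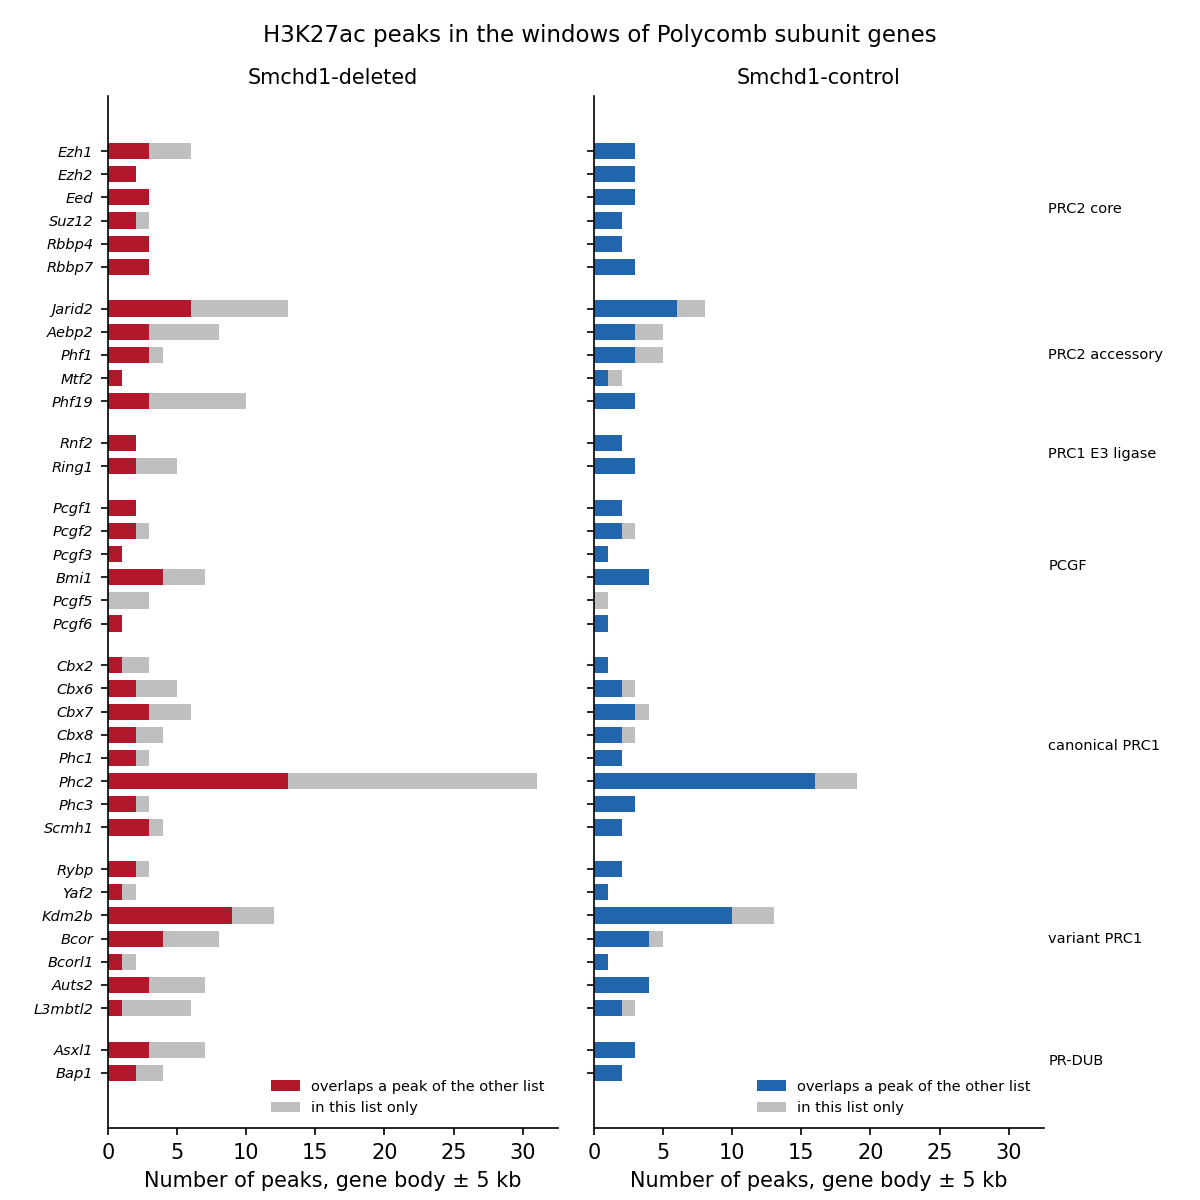
Number of H3K27ac peaks within the body ± 5 kb of each Polycomb subunit gene (x axis), the Smchd1-deleted list on the left and the Smchd1-control list on the right, with coloured bars for peaks that overlap the other list and grey bars for peaks in 1 list only. The 90 grey peaks of the deleted list, 18 of them at Phc2, outnumber the 20 of the control list, and the coloured parts are alike in both panels.

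Ranks were compared among the 35969 pairs of peaks that overlapped 1 to 1, so that the length of a list did not enter. For each gene the pair with the highest mean rank gave a shift, its percentile among the deleted peaks minus its percentile among the control peaks of the same pairs, and 34 genes had such a pair (not Pcgf5 and L3mbtl2). The median shift was -0.39 percentile points over the 34 genes, with quartiles of -6.86 and 1.49, beside 0.08 with quartiles of -5.75 and 6.75 over 12245 protein-coding genes. A shift of 10 points or more upward in the deleted list was found at 3 genes, Phf19 (14.6), Phc3 (12, at a weak peak inside the gene) and Scmh1 (71.8), against 18.3% of protein-coding genes. A shift of 10 points or more downward was found at 6 genes, Phf1 and Pcgf2 (-10.3 each), Yaf2 (-13.4), Rnf2 (-17.2), Cbx7 (-24.6) and Bcorl1 (-38.5), against 16.7%. Of the 12245 genes, 7 (0.0572%) had a shift at least as high as that of Scmh1, 211 (1.72%) one at least as low as that of Bcorl1 and 596 (4.87%) one at least as low as that of Cbx7. With pileup in place of fold for the ranks, the shift was 77.1 at Scmh1, -26.1 at Cbx7 and -20.6 at Bcorl1. Membership at the 10 points changed with the measure at 3 genes. Phc3 had 9.76 by pileup, Rybp had -6.83 by fold, -16.3 by −log10 q and -23.7 by pileup, and Asxl1 had 8.46 by fold and 13.6 by −log10 q.

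**Figure D5:**
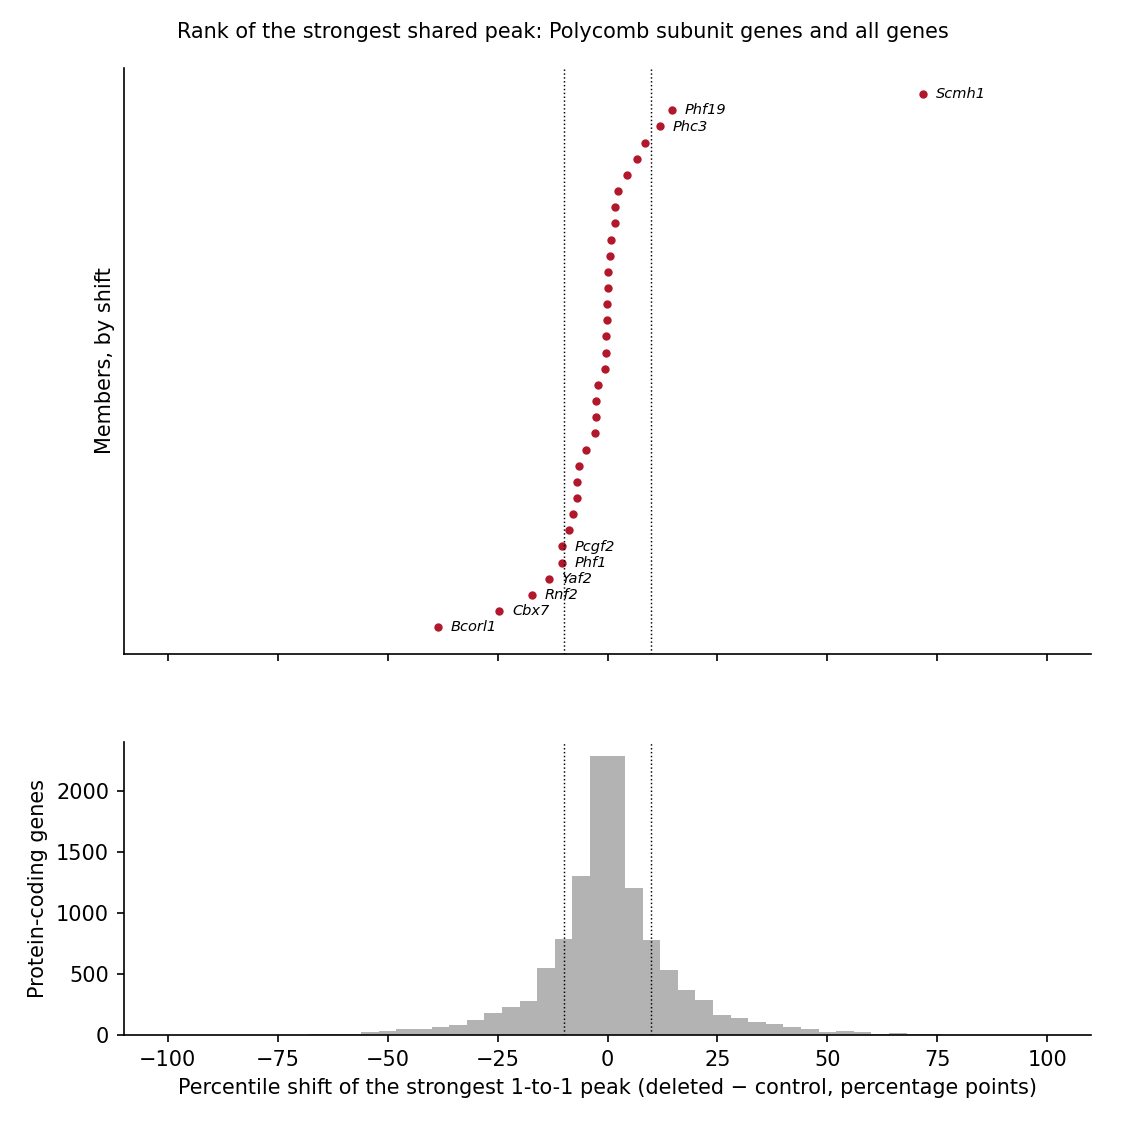
Percentile shift of the strongest 1-to-1 peak (x axis, Smchd1-deleted minus Smchd1-control, percentage points) for 34 Polycomb subunit genes in rising order (upper panel) and for 12245 protein-coding genes (lower panel, y axis number of genes, bins of equal width). Dotted lines mark shifts of 10 points either way, the named genes lie beyond them, and Scmh1 at 71.8 lies far from the others.

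The promoter windows of the 31 genes, 44 in number since some genes have several starts, had a median of 23 CG dinucleotides in 300 bases, against 13 over 21045 windows of protein-coding genes. Many of those 21045 windows had no peak. Among the 44, windows of the same gene overlap at Bcor and at Kdm2b, so some bases count more than once. In windows touched in both lists the median was 28 at these genes, against 22 over all protein-coding genes. A peak touched 17 of the 44 windows (38.6%), from 14 genes, in both lists, against 31.2% of all windows. A peak touched 6 (13.6%) in the deleted list only, at Rbbp4, Phf19, Bmi1, Pcgf6, Scmh1 and Kdm2b, against 9.44%, and 2 (4.55%) in the control list only, at Mtf2 and Cbx8, against 1.82%. Some of these calls turned on a few bases. The Rbbp4 window ended at 129335620, and a shared control peak of 9.80 began at 129335625. The Pcgf6 and Phf19 windows began at 47050857 and 34913927, and shared control peaks ended at 47050850 and 34913920. The Cbx8 window began at 119040864, and a shared deleted peak ended at 119040854. At Kdm2b a window from 122900318, beside this one from 122900301, was touched in both lists. The median GC content was 71.5% in the 6 windows touched in deleted cells only and 64.3% in the 17 touched in both. Over all protein-coding genes it was 61.3% and 62.0% in the same classes, so the difference seen among these few windows was not present genome-wide. The GC box was found in 68.2% of the 44 windows, against 46.7% of all windows, the NRF1-type motif in 15.9%, against 6.44%, CCAAT in 38.6%, against 38.5%, and the ETS-type motif in 4.55%, against 11.7%. The E2F-type motif TTTGGCGC occurred at Ezh2 alone of these genes, in 2.27% of windows against 0.641%, and TTTCCCGC at Suz12 and Phf19, in 4.55% against 1.42%. The YY1-type motif occurred at Ring1 and Phc3, in 4.55% against 5.29%. Among windows touched in both lists, the GC box was in 76.5% at these genes, against 64.1% over all protein-coding genes. In the same windows the NRF1-type motif was in 11.8%, against 11.7%, CCAAT in 35.3%, against 35.3%, and the ETS-type motif in 11.8%, against 22.9%.

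Other genes of the pathway were read in the same way. Of 34 further Polycomb-linked genes, 30 had peaks in both lists, with median highest folds over the 34 of 8.90 in the deleted list, against 7.36 in the control list. Asxl3 (3.19), a paralog of Asxl1, had 1 peak in the deleted list and none in the control list. Scml2 (4.64), an X-linked paralog of Scmh1, had 1 peak in the control list and none in the deleted list. Of all protein-coding genes, 5.71% had peaks in the deleted list alone and 0.915% in the control list alone. The other 2 of the 34 genes had no peak in either list. The 4 genes of demethylases and acetyltransferases of lysine 27 in the gene table all had peaks in both lists, with median highest folds of 13.9 in the deleted list, against 11.7 in the control list. Of 25 subunits of the BAF remodelling complex, which opposes Polycomb, 24 had peaks in both lists, with medians of 9.74 in the deleted list, against 9.08 in the control list.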

How the data were processed

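H3K27ac ChIP-seq was analysed in 2 ChIP libraries, 1 per group, grouped by their titles. The submitters' processing notes name Bowtie 0.12.9, bcl2fastq and mm10. Per the file headers, MACS2 2.1.0.20140616 was run by the authors on each ChIP library with the matching input, in narrow mode, with a q-value limit of 0.05 and down-sampling. In the deposited lists are each peak's pileup signal (tags over the summit), fold enrichment (a ratio to the local background) and −log10 q. Input libraries kept 77101643 tags in deleted and 80601280 in control cells. Peaks on chromosomes 1 to 19 and X were assigned to RefSeq bodies with 5 kb added on each side. Peaks sharing 1 base or more with a peak of the other list were called shared. Shares have exact Clopper-Pearson 95% intervals, and pileups exact Poisson 95% intervals. The overlap code was tested on simulated data. Python 3.11.15, pandas 2.3.3 and scipy 1.17.1 were used. Values are given for all 36 genes as ranges and counts, and singly for the highest folds, the largest differences, the core enzymes, X-linked genes and rank shifts. The genes, lists and motifs were chosen with earlier results of these data known. Alternatives changed the window, the peak threshold, the list length, the overlap and the ranking measure.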

Additional observations from a re-analysis of the deposited data

How the results depend on the processing

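Of 87 values under alternatives, 63 stayed within 1.5 times the main count or within its interval and 24 moved. With gene bodies alone, 2 genes had peaks in the deleted list only, 2 had more in the control list and 5 in place of 9 passed the rank shift. With both lists cut to folds of at least 5, 2 genes had deleted peaks only and 1 control peaks only. The windows then held 64 deleted and 63 control peaks, and 8 genes had more deleted and 7 more control peaks. Of these deleted peaks, 18.75% lacked a counterpart in the cut control list, and 6.25% lacked one in the full control list. With both lists cut to −log10 q of at least 5, 1 gene was in the deleted list only and 112 deleted peaks were left. Of the peaks left, 30.4% of deleted and 6.67% of control peaks lacked a counterpart in the cut lists. With lists of equal length, 32.6% of deleted peaks lacked a counterpart, and 15 genes had more deleted and 10 more control peaks. Within 1 kb of annotated starts, an alternative chosen after seeing the data, 1 gene was in each list only, with 60 deleted and 51 control peaks, of which 25.0% and 7.84% lacked a counterpart, and 11 genes had more in the deleted list. The thresholds shorten both lists by construction, and other causes were not tested. No paired analysis was possible because each group has 1 library. The effect of depth was not tested.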
